A study of Mus musculus with 7 samples.

Results

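The 9 genes described here mark cellular senescence or belong to the p53 pathway. They are Cdkn1a, Cdkn2a, Cdkn2b, Trp53, Mdm2, Ccng1, Lmnb1, Gdf15 and Igfbp3. They are taken by name rather than by a threshold on a measured value, although earlier results of these data were known when they were chosen, and all 9 were found among the 52740 genes of the count table and among the 16990 genes with enough counts to be tested. Their mRNA was measured by bulk RNA sequencing of retinal pigment epithelium (RPE), the pigmented cell layer that serves the photoreceptors, in 4 WT and 3 LC3b-/- mice, with 1 library per mouse and no pooling. WT mice were C57BL6/J (females F1, F2 and F3 and male M1), and LC3b-/- mice carried the Map1lc3b tm1Mrab allele on a mixed background that is B6 in part (females F1 and F3 and male M). All mice were 24 months old and no treatment is named. LC3B, the product of Map1lc3b, coats autophagosomes and is attached to the phagosomes with which RPE takes up photoreceptor outer segments. The deletion is present in all cells of the mouse and not in RPE alone, and strain background cannot be told apart from the targeted gene.

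Cellular senescence is a lasting exit from the cell cycle. In it, the inhibitors encoded by Cdkn1a (p21), Cdkn2a (p16Ink4a and p19Arf) and Cdkn2b (p15Ink4b) hold back the cyclin-dependent kinases that would otherwise inactivate the retinoblastoma protein. The transcription factor p53, encoded by Trp53, is stabilised by DNA damage and other stress, switches on Cdkn1a, Mdm2 and Ccng1 among many targets, and is in turn degraded through Mdm2. Loss of lamin B1 (Lmnb1) from the nuclear lamina and release of secreted proteins such as Gdf15 and Igfbp3 are widely used as further marks of senescent cells. RPE cells of the adult eye seldom divide and must last for the life of the animal, and senescence in this layer is much studied in age-related macular degeneration.

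The promoter sequences are shown first, as a description of the bases next to each transcription start. Sites of p53 farther from the start were not searched for. Windows reaching from 250 bases before to 50 bases after each transcription start were taken from RefSeq on GRCm38.p6, an older build than the GRCm39 of the counts, and were held for 8 of the 9 genes. They were searched for exact matches to the p53 half-site consensus, a motif of 10 bases that reads the same on both strands. Such a match lay in a window of 4 of these 8 genes, of 8 of 23 other p53 target genes with a window, and of 2582 (9.55%) of 27025 genes overall. The matches are in capitals below, on the strand of the gene and from 5′ to 3′. Cdkn1a is given as the whole stretch before its upstream start. Of the 8 genes only it has a pair of exact half-site matches no more than 13 bases apart. A full p53 element is a pair of half-sites within that distance. Half-sites with a mismatch were not marked, so the marked pair need not be the element that p53 binds. Trp53, Mdm2 and Ccng1 are given as 60 bases around the match.
Cdkn1a, chr17:29090729-29090978, plus strand: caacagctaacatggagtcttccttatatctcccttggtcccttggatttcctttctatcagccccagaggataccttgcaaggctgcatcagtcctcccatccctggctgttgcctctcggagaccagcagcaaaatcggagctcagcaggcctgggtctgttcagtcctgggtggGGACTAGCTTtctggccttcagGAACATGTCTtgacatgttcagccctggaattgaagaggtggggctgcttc
Trp53, chr11:69580259-69580318, plus strand: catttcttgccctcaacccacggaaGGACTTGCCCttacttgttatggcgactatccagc
Mdm2, chr10:117710910-117710969, minus strand: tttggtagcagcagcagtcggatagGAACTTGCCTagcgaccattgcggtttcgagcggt
Ccng1, chr11:40755437-40755496, minus strand: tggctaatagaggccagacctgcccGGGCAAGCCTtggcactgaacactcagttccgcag

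In Cdkn1a the half-sites began at positions -73 and -51 from the start, with 12 bases between them, and the window of a second Cdkn1a start 2790 bases downstream held none. The match began at -75 in Trp53, at -186 in Mdm2 and at -185 in Ccng1. Pairs of this kind were found in 24 of 32851 windows (0.0731%) and single matches in 8.36% of them. No match lay in the windows of Cdkn2a, Cdkn2b, Gdf15 or Igfbp3, which says only that these letters are not in those windows. No binding was measured, and a match is a description of the sequence.

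The libraries held 24495952 to 35616134 counts. Levels are given as counts per 1000000 (CPM) after scaling by the trimmed mean of M values (TMM). Map1lc3b, the targeted gene, was at 104.0 to 130.1 CPM in WT and at 6.76 to 8.33 CPM in LC3b-/- and fell by 3.98 on the log2 scale (SE 0.15, edgeR adjusted p = 0.000186). RPE markers such as Ttr, Rgr and Rlbp1 were abundant in every library, and the 10 RPE markers summed to 30247 to 47684 CPM in WT and 13059 to 28273 CPM in LC3b-/-; 9 of them were lower in LC3b-/-, 7 with an unadjusted p below 0.05. The 13 markers of ocular surface epithelium, led by the keratins Krt5, Krt15 and Krt6a, summed to 879, 627, 10.2 and 2507 CPM in the WT mice F1, F2, F3 and M1, and to 24808, 6445 and 3490 CPM in the LC3b-/- mice F1, F3 and M. All 12 tested markers of this list were higher in LC3b-/-, 8 of them with an unadjusted p below 0.05, at a median log2 fold change of 4.31; Dsg3 and Sprr1a were at 0 counts in WT F3. The 10 endothelial markers summed to 404 to 1303 CPM in WT and 1470 to 1729 CPM in LC3b-/-, and the 8 fibroblast markers to 343 to 1402 and 854 to 1856 CPM. Photoreceptor markers summed to 275 to 20717 CPM in WT, against 95.3 to 7077 CPM in LC3b-/-. In such bulk samples a larger number of cells of one type and more RNA per cell cannot be told apart, and the part of these marker lists in the results that follow was not tested.

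All 9 genes had a higher mean in LC3b-/- than in WT RPE, and none was called. A gene was called at an edgeR adjusted p below 0.05 together with a fold change of at least 1.5, which 40 of 16990 genes reached (0.235%), 21 of them higher in LC3b-/- (0.124%). At an unadjusted p below 0.05, 6 of the 9 genes were higher in LC3b-/- (Cdkn1a, Cdkn2b, Mdm2, Lmnb1, Gdf15 and Igfbp3), where 13.5% of all genes tested were. The groups did not overlap for 5 of the 9 genes (Cdkn1a, Cdkn2b, Mdm2, Gdf15 and Igfbp3), all with every LC3b-/- library above every WT library; over all genes tested 22.3% did not overlap in either direction, and 2033 of 16990 had all LC3b-/- libraries on top. The median log2 fold change was 1.00 over the 9 genes and 0.01 over all genes tested. DESeq2's Wald test on the same counts called 5 of the 9 genes, where it called 7.57% of the genes it adjusted as higher in LC3b-/-, and limma's voom called 0.

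**Figure D1:**
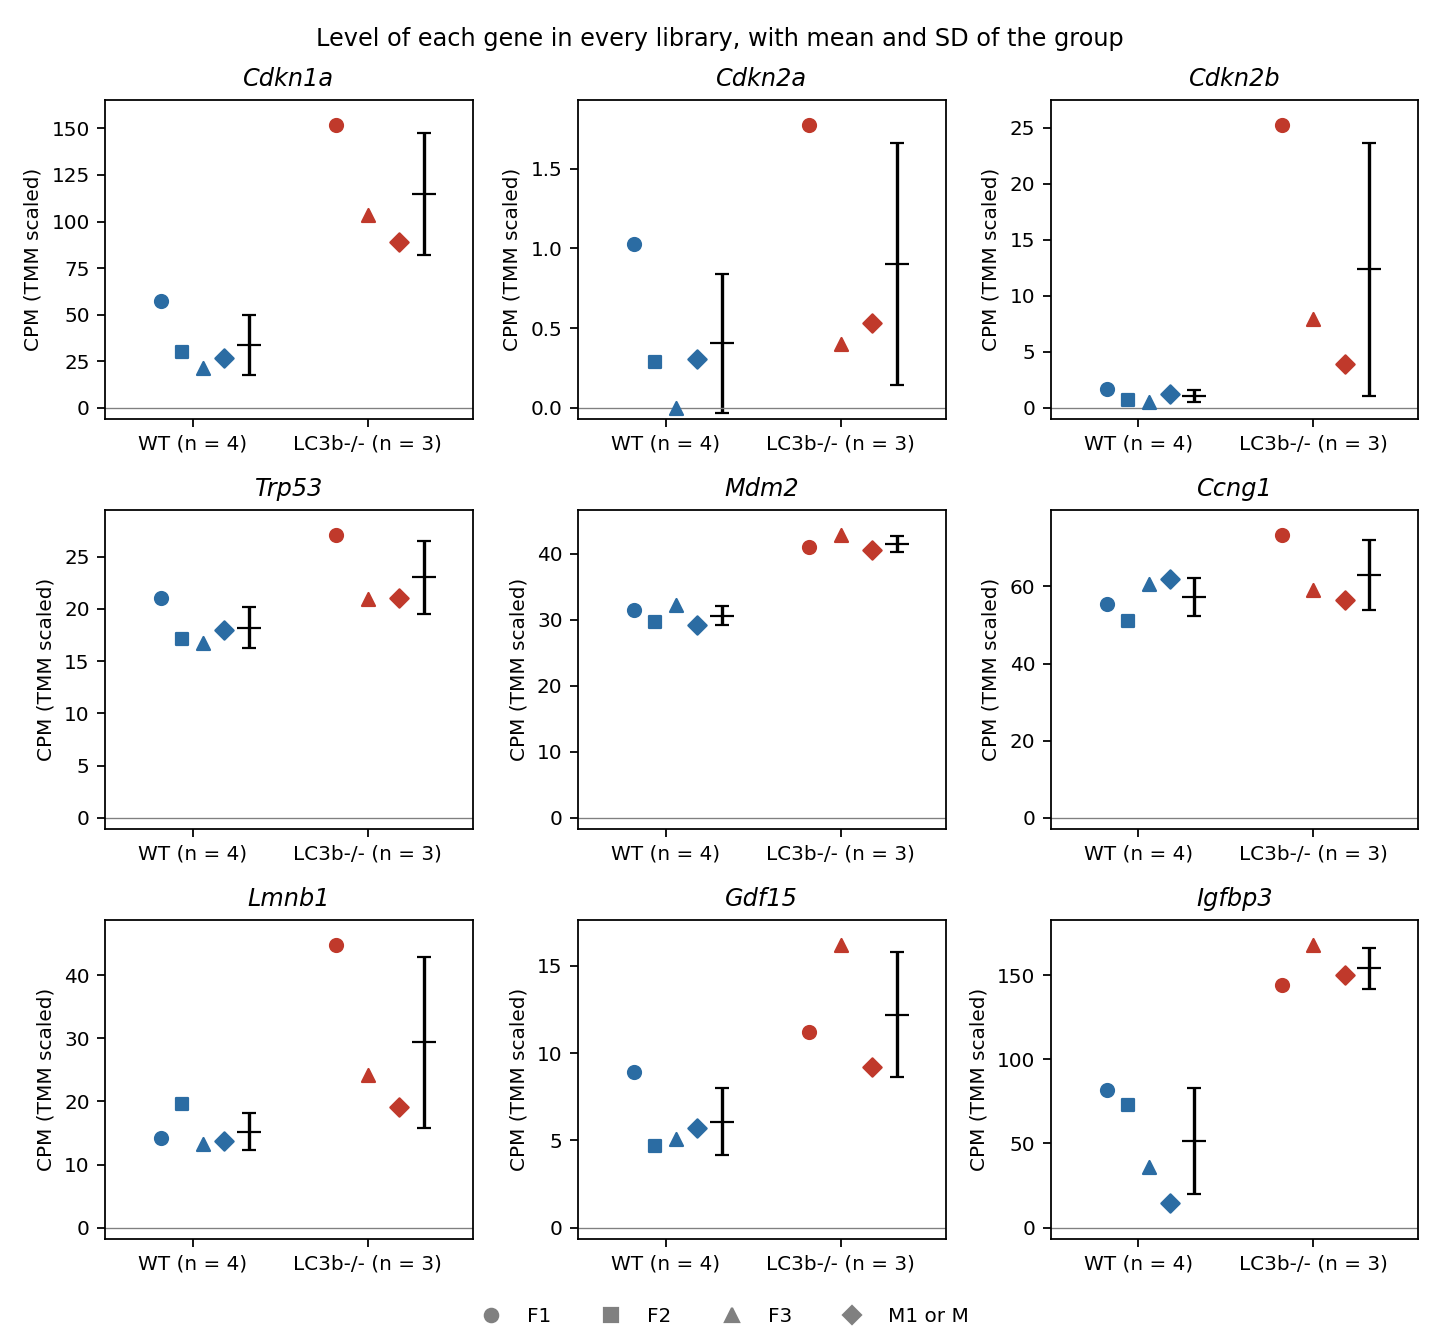
Level of each of the 9 genes in CPM (vertical axis, linear, a separate scale for each gene) in every library of WT (blue, n = 4) and LC3b-/- (red, n = 3) RPE; symbols give the mouse, and the bar beside the points is the mean ± SD. Points of the groups are apart for Cdkn1a, Cdkn2b, Mdm2, Gdf15 and Igfbp3, and LC3b-/- F1 is the highest point for Cdkn1a, Cdkn2a, Cdkn2b, Trp53, Ccng1 and Lmnb1.

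Trp53 itself differed little between the groups. Its level was 21.0, 17.1, 16.7 and 17.95 CPM in the WT mice F1, F2, F3 and M1, against 27.1, 21.0 and 21.0 CPM in LC3b-/- F1, F3 and M. WT F1 and the lower LC3b-/- libraries were at almost the same level, so that the groups touched, and LC3b-/- F1 stood above the rest. The log2 fold change was 0.34 (SE 0.15, edgeR adjusted p = 0.212; exact two-sided permutation p = 0.0857). Trp53 lies at chr11:69469669-69482701 on the plus strand (GRCm39, as all gene positions here). Its processed copy Trp53-ps, which matches it over 899 bases, was assigned at most 1 count in any library.

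Mdm2, the ubiquitin ligase that degrades p53, showed a small difference with little spread. It stood at 31.5, 29.7, 32.2 and 29.2 CPM in the WT libraries, in the order F1, F2, F3 and M1, and at 41.0, 42.8 and 40.6 CPM in LC3b-/- F1, F3 and M. The groups did not overlap, and the gap between them was wider than the range within either. The means were 30.6 ± 1.43 CPM (SD, n = 4) and 41.5 ± 1.21 CPM (SD, n = 3), a log2 fold change of 0.44 (SE 0.09, 1.35-fold, edgeR adjusted p = 0.0906). The exact permutation p was 0.0286, the smallest that 4 against 3 libraries can give. DESeq2 gave an adjusted p of 3.25e-04 and a log2 fold change of 0.42, so that only the fold threshold kept Mdm2 from being called by it. The LC3b-/- libraries were nearly level for Mdm2, while their epithelial marker sums differed. The part of epithelial cells in the Mdm2 difference was not tested. Mdm2 lies at chr10:117524780-117546730 on the minus strand.

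Ccng1, which encodes cyclin G1 and is a direct p53 target, was at 55.3, 51.0, 60.5 and 62.0 CPM in WT and at 73.3, 59.0 and 56.6 CPM in LC3b-/-, in the same order of mice. LC3b-/- F1 was the highest library, while LC3b-/- F3 and M lay within the WT range. The log2 fold change was 0.14 (SE 0.13, edgeR adjusted p = 0.546; exact permutation p = 0.400), and 0.01 without LC3b-/- F1. The gene lies at chr11:40639377-40646148 on the minus strand. Thus of the 4 genes with a half-site match in a promoter window, Cdkn1a and Mdm2 did not overlap between the groups and Trp53 and Ccng1 did.

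Cdkn1a, whose product p21 inhibits cyclin-dependent kinases and is the main p53 target in growth arrest, was among the most abundant of the 9 genes, and its groups were well apart. It was at 57.4 CPM in WT F1, 29.9 in F2, 21.6 in F3 and 26.6 in M1, and at 151.7 CPM in LC3b-/- F1, 103.3 in F3 and 89.2 in M. The lowest LC3b-/- library lay above the highest WT library, and F1 was the highest mouse of each group. The means were 33.9 ± 16.0 and 114.7 ± 32.8 CPM, a log2 fold change of 1.76 (SE 0.35, 3.39-fold). The edgeR p was 0.00134 before and 0.0903 after adjustment over all genes, and the exact permutation p was 0.0571. Without WT F1 the log2 fold change was 2.14 and the gene was called (edgeR adjusted p = 0.0364); without LC3b-/- F1 it was 1.503. DESeq2 gave an adjusted p of 1.14e-04. Cdkn1a lies at chr17:29309936-29319701 on the plus strand.

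Cdkn2b, encoding p15Ink4b, which blocks Cdk4 and Cdk6, had the largest fold change of the 9 genes from the lowest base but one. The WT libraries held 59, 17, 13 and 32 counts (1.73, 0.704, 0.487 and 1.23 CPM) and the LC3b-/- libraries 627, 315 and 134 counts (25.2, 7.90 and 3.96 CPM). No WT library reached the lowest LC3b-/- library, and the LC3b-/- libraries themselves were far apart, with F1 well above M. The means were 1.04 ± 0.556 and 12.4 ± 11.3 CPM, a log2 fold change of 3.56 (SE 0.71, 11.8-fold, edgeR adjusted p = 0.0898; exact permutation p = 0.0286). The order of the LC3b-/- libraries was that of their epithelial marker sums. Without LC3b-/- F1 the log2 fold change was 2.50 (edgeR adjusted p = 0.233), and without LC3b-/- M it was 3.98 and the gene was called (edgeR adjusted p = 0.0379). DESeq2 gave an adjusted p of 2.08e-05.

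Cdkn2a, the neighbour of Cdkn2b on chromosome 4 (chr4:89192708-89212890 and chr4:89223204-89229276, both on the minus strand), was close to the detection limit. It had 35, 7, 0 and 8 counts in the WT mice F1, F2, F3 and M1, against 44, 16 and 18 counts in LC3b-/- F1, F3 and M, which is 0 to 1.02 CPM and 0.401 to 1.77 CPM. The 0 counts of WT F3 allow up to 0.112 CPM, a limit from counting error only. F1 was the highest mouse in each group, and WT F1 lay above LC3b-/- F3 and M. Only 4 libraries, all LC3b-/- libraries and WT F1, exceeded the 0.374 CPM that the filter on low counts asks for, so the gene could be tested mainly through the group in which it was higher. The log2 fold change was 1.10 with an SE of 1.08 (edgeR adjusted p = 0.556; exact permutation p = 0.314), and it was 0.17 without LC3b-/- F1 and 2.15 without WT F1. Counts per gene join the transcripts for p16Ink4a and p19Arf, so the proteins cannot be told apart here. The difference in Cdkn2a was thus about the size of its SE.

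Lmnb1, the lamina protein whose loss is used as a mark of senescence, was higher rather than lower in LC3b-/-. It was at 14.2, 19.6, 13.3 and 13.8 CPM in the WT mice F1, F2, F3 and M1, and at 44.8, 24.2 and 19.2 CPM in the LC3b-/- mice F1, F3 and M. WT F2 lay slightly above LC3b-/- M, so the groups overlapped, and LC3b-/- F1 was far above every other library. The means were 15.2 ± 2.94 and 29.4 ± 13.6 CPM (log2 fold change 0.95, SE 0.30, edgeR adjusted p = 0.130; exact permutation p = 0.0857). The log2 fold change was 0.51 without LC3b-/- F1, and the order of the LC3b-/- libraries was again that of the epithelial marker sums. DESeq2 gave an adjusted p of 0.0437. Lmnb1 lies at chr18:56840590-56886496 on the plus strand.

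The genes of both secreted proteins had a higher mean in LC3b-/-. Gdf15, a stress-induced hormone of the TGF-beta family that responds to p53 and to the integrated stress response, was at 8.90, 4.68, 5.05 and 5.69 CPM in the WT libraries and at 11.2, 16.2 and 9.22 CPM in the LC3b-/- libraries. WT F1 came close to LC3b-/- M but the groups did not overlap, and F3, not F1, was the highest LC3b-/- mouse. The means were 6.08 ± 1.92 and 12.2 ± 3.59 CPM (log2 fold change 1.00, SE 0.30, edgeR adjusted p = 0.118; exact permutation p = 0.0571; DESeq2 adjusted p = 0.0246). Gdf15 lies at chr8:71082038-71091537 on the minus strand, on the same chromosome as Map1lc3b and 51.2 Mb from it.

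Igfbp3, a carrier of insulin-like growth factors that p53 can induce, was at 81.6, 72.8, 36.2 and 14.5 CPM in the WT mice F1, F2, F3 and M1, and at 144.4, 167.8 and 150.0 CPM in the LC3b-/- mice F1, F3 and M. The spread was wide among WT mice and narrow among LC3b-/- mice, and the groups were well apart. The means were 51.3 ± 31.4 and 154.1 ± 12.2 CPM, a log2 fold change of 1.59 (SE 0.51, 3.00-fold, edgeR adjusted p = 0.136; exact permutation p = 0.0571; DESeq2 adjusted p = 0.0176). Leaving out 1 library at a time gave 1.28 (without WT M1) to 1.91 (without WT F1). The LC3b-/- libraries were alike for Igfbp3 although their epithelial marker sums differed widely. The 10 endothelial markers, in contrast, had the same order of WT mice as Igfbp3, with sums of 1303, 1154, 504 and 404 CPM in F1, F2, F3 and M1, and were nearly level in LC3b-/-, with 1681, 1729 and 1470 CPM in F1, F3 and M. In LC3b-/-, F3 was on top for both, followed by M and F1 for Igfbp3 but by F1 and M for the endothelial markers. The groups overlapped for neither, and the part of endothelial cells in the difference was not tested. The gene lies at chr11:7156086-7164179 on the minus strand.

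**Figure D2:**
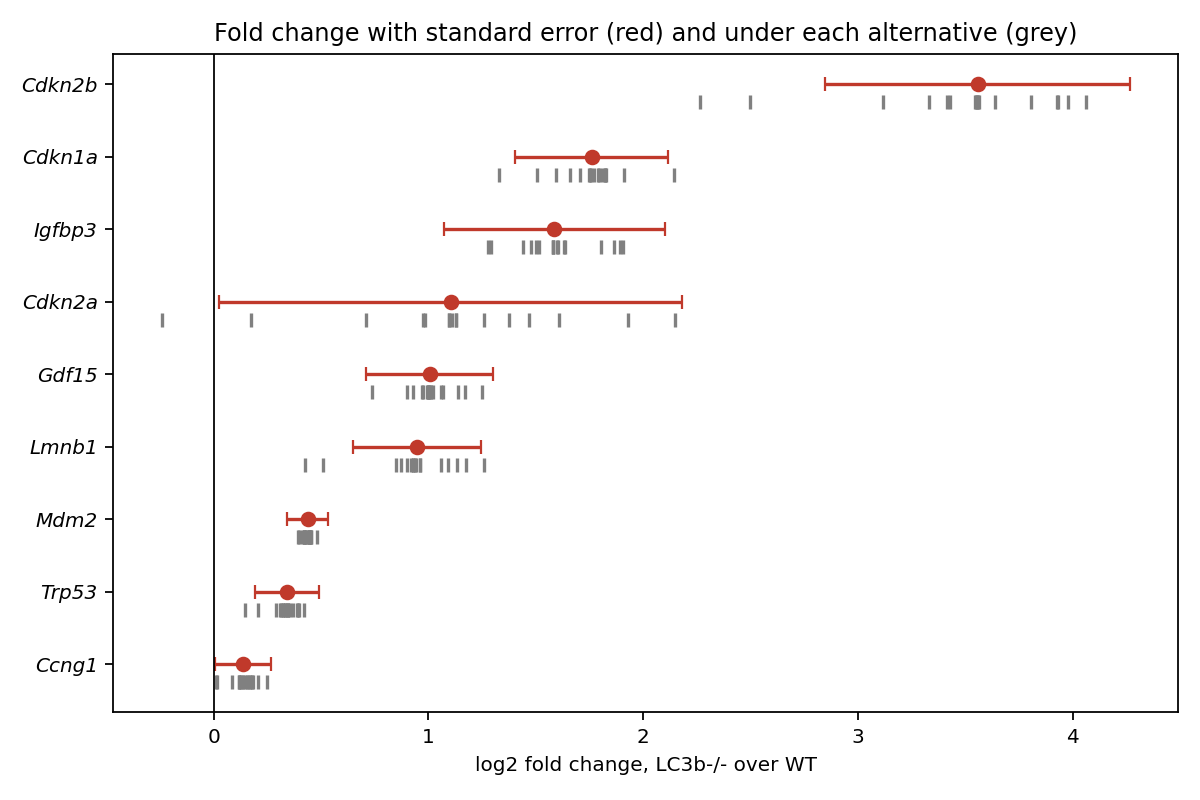
Log2 fold change of LC3b-/- over WT (horizontal axis) for the 9 genes from the edgeR fit, with its standard error (red), and under each alternative way of processing (grey ticks). Red points run from 0.14 for Ccng1 to 3.56 for Cdkn2b, and the grey ticks lie above 0 except 1 of Cdkn2a at -0.24.

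The levels of different genes can be set side by side once divided by transcript length. Per kilobase of the canonical transcript, WT RPE held most of Igfbp3 (19.0 CPM per kb), Cdkn1a (17.6) and Ccng1 (16.3), then Mdm2 (9.88) and Trp53 (9.83), then Lmnb1 (4.85) and Gdf15 (3.17), and least of Cdkn2a (0.476) and Cdkn2b (0.381). In LC3b-/- RPE the order was led by Cdkn1a (59.7 CPM per kb) and Igfbp3 (56.99), with Ccng1 (17.9), Mdm2 (13.4), Trp53 (12.4), Lmnb1 (9.36), Gdf15 (6.38) and Cdkn2b (4.54) after them and Cdkn2a (1.06) last. In WT the neighbours Igfbp3 and Cdkn1a, Cdkn1a and Ccng1, Mdm2 and Trp53, and Cdkn2a and Cdkn2b differed by less than the larger SD of the pair. In LC3b-/- only the steps from Igfbp3 to Ccng1 and from Ccng1 to Mdm2 were larger than that SD. Ccng1 thus stood at the level of Cdkn1a in WT and well below it in LC3b-/-.

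Epithelial marker sums and the 9 genes were compared library by library. Cdkn2b and Lmnb1 were highest in LC3b-/- F1, then F3, then M, as were the epithelial markers, and Cdkn1a and Ccng1 had the same order. Among the WT libraries the epithelial sum was highest in M1, as was Ccng1. Cdkn1a and Cdkn2b were highest there in F1, and Lmnb1 in F2. Mdm2, Gdf15 and Igfbp3 had another order, with LC3b-/- F3 on top. The male libraries, WT M1 and LC3b-/- M, had the closest epithelial sums of any WT and LC3b-/- pair (2507 and 3490 CPM) and were compared after these values were seen. Single epithelial markers still differed within the pair, in both directions. Krt12 was at 786 CPM in WT M1 and 12.4 CPM in LC3b-/- M, and Krt15 at 341 and 1160 CPM, while Krt5 was closer (1021 and 1257 CPM). The pair was also not matched for all other cell types. Sums were 404 and 1470 CPM for endothelium, 461 and 1856 for fibroblasts, 275 and 3087.5 for photoreceptors and 47684 and 28273 for RPE. Those of macrophages and microglia were closer (596 and 559 CPM). In LC3b-/- M the level was 3.35 times that of WT M1 for Cdkn1a, 3.22 times for Cdkn2b, 1.39 times for Mdm2 and for Lmnb1, 1.62 times for Gdf15 and 10.3 times for Igfbp3. It was 1.17 times for Trp53, 1.73 times for Cdkn2a and 0.914 times for Ccng1. With 1 library on each side these ratios have no replicate check.

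**Figure D3:**
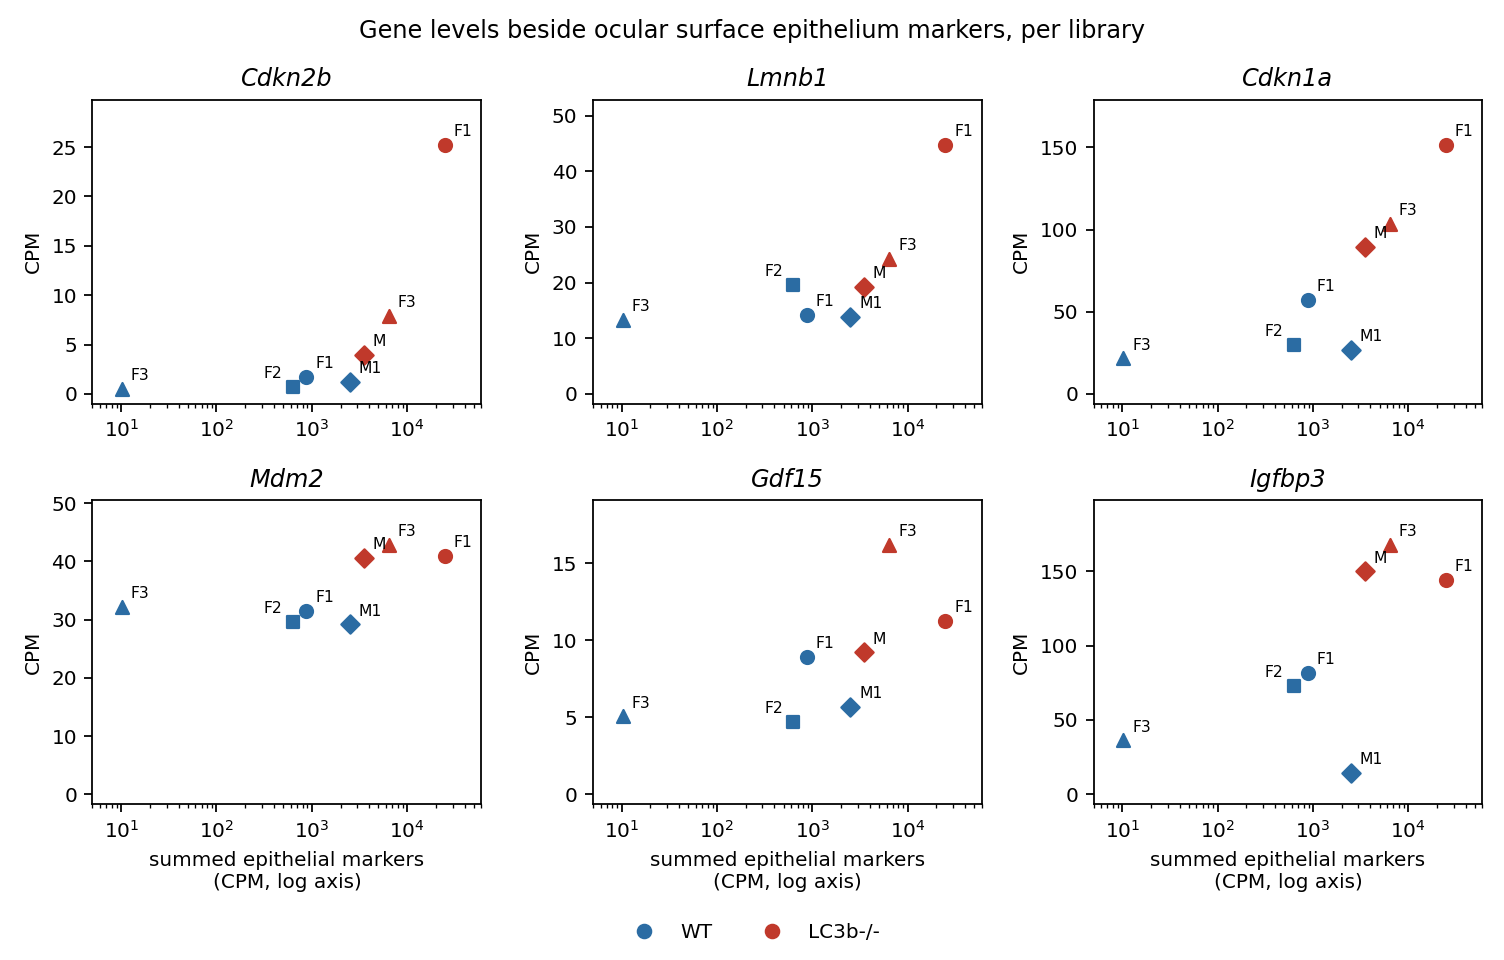
Level of 6 genes in CPM (vertical axis, linear) against the summed CPM of 13 ocular surface epithelium markers (horizontal axis, log) in the 7 libraries, WT in blue and LC3b-/- in red, labelled by mouse. All LC3b-/- libraries lie to the right of the WT libraries; Cdkn2b and Lmnb1 are far higher in F1 than in the other LC3b-/- libraries, while Mdm2 and Igfbp3 are about level among them.

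Across the 7 libraries the 9 genes varied together to different degrees. As a description, with groups, depth and library shared by all points, Pearson's r of log2 CPM was 0.931 between Cdkn1a and Trp53, 0.946 between Cdkn2b and Trp53 and 0.881 between Cdkn1a and Mdm2, and 0.0231 between Ccng1 and Igfbp3. Among the tested genes with a mean of at least 10 CPM (9905, or 9906 where the gene itself is below that mean), the profile most like that of Cdkn1a was that of Cask (r = 0.995), that of Cdkn2b was matched by Itga6 (0.997), an integrin subunit, and that of Trp53 by Capn2 (0.998). The closest genes were Fam13b for Mdm2 (0.994), Ncaph2 for Lmnb1 (0.991), Tcp11l2 for Gdf15 (0.980), Ccdc9 for Igfbp3 (0.994) and Cd248 for Cdkn2a (0.964). The next in order were P3h2 and Arid5b for Cdkn1a, Cast and Nbeal2 for Cdkn2b, Tubb2b and Fnbp1l for Trp53, and Zswim6 and Plpp1 for Igfbp3. For Mdm2 they were Gm48161 and Ndufa12-ps, for Lmnb1 Dynll1 and Add1, for Gdf15 Skap2 and Usp54, and for Cdkn2a Gm28439 and Mid1ip1.

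Other targets of p53 lay in part on the same side. Of 32 such genes tested, 22 had a higher and 10 a lower mean in LC3b-/-, at a median log2 fold change of 0.42. Of all genes tested, 51.2% were higher. DESeq2 called 7 of the 32, where it called 11.5% of all genes it adjusted. Tnfrsf10b, the death receptor for TRAIL, rose and was the only one of the 32 called by edgeR. It was at 17.2, 15.2, 14.1 and 12.9 CPM in the WT mice F1, F2, F3 and M1, and at 35.8, 39.6 and 43.1 CPM in the LC3b-/- mice F1, F3 and M. The libraries of each group lay close together and far from the other group (log2 fold change 1.41, SE 0.14, edgeR adjusted p = 0.0111). The call was lost without WT F2 (edgeR adjusted p = 0.0675), without WT F3 (0.0556) and without LC3b-/- F3 (0.0797).

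At an unadjusted p below 0.05, 12 of the 32 targets were higher and 1 was lower (10.6% of all genes were lower at this p), and 8 had every LC3b-/- library above every WT library. Those with the smallest p after Tnfrsf10b were Ccnd2, a D-type cyclin (log2 fold change 1.55, edgeR adjusted p = 0.0906), the kinase gene Plk2 (1.13, 0.103) and the death receptor gene Fas (0.91, 0.104). Ccnd2 stood at 33.8 to 75.1 CPM in WT and at 109.2 to 217.5 CPM in LC3b-/-. Of the 32 targets, 25 lay above their WT mean in LC3b-/- F1, 21 in F3 and 24 in M. More of these 32 genes thus lay above than below the WT mean in each LC3b-/- library. The share of all genes tested that did so was not counted.

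**Figure D4:**
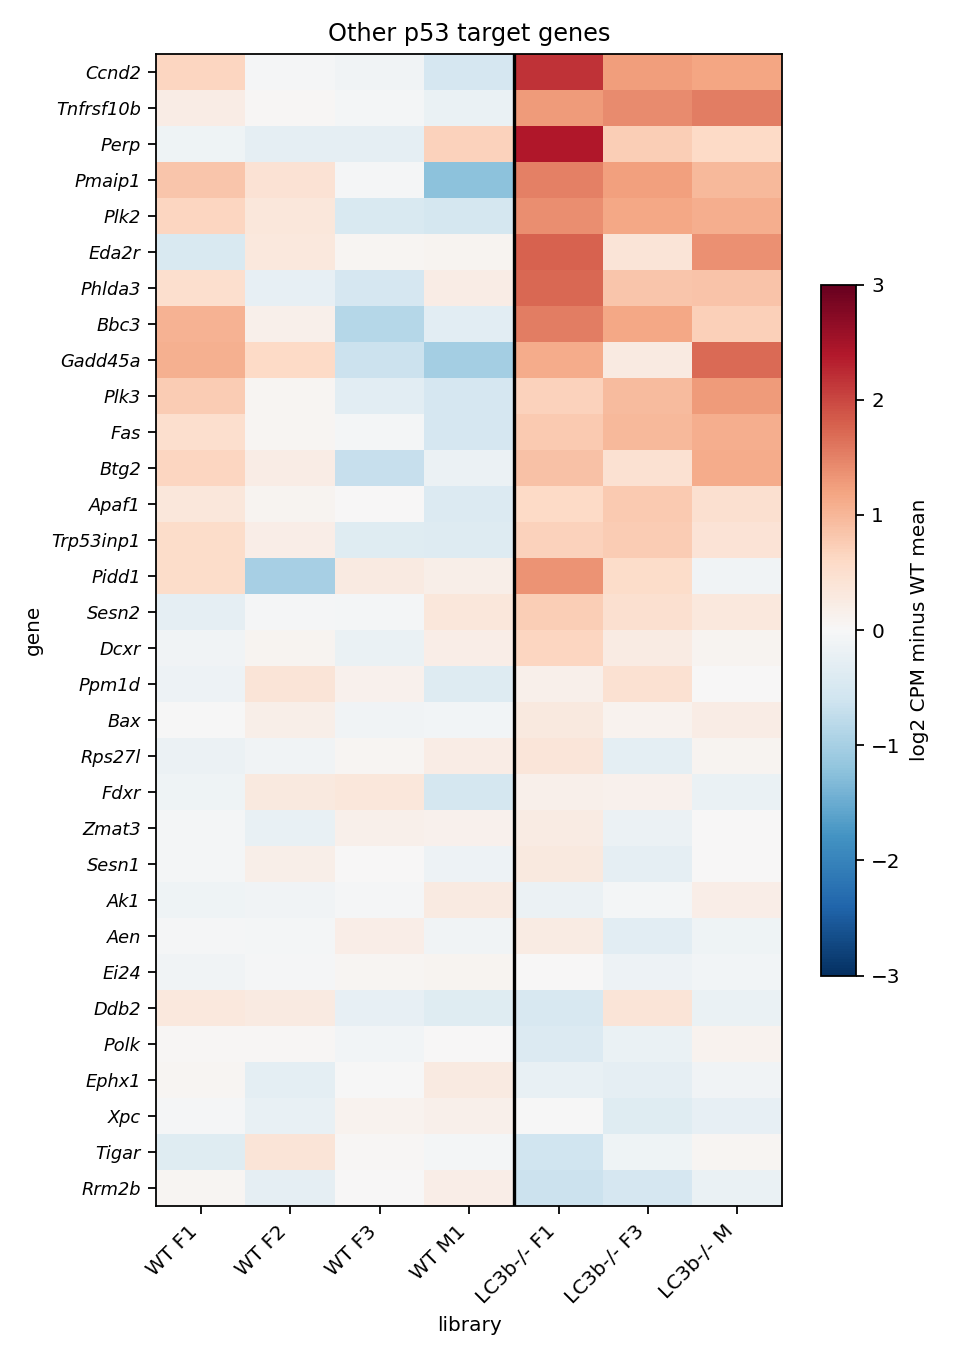
Log2 CPM minus the WT mean (colour, red above and blue below) of 32 other p53 target genes (rows, ordered by the mean of the LC3b-/- libraries) in 7 libraries (columns, WT left of the line). The upper rows, led by Ccnd2 and Tnfrsf10b, are red in all 3 LC3b-/- libraries, and the lower rows show little colour or blue.

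Of 22 tested genes that regulate p53, 16 were higher and 6 lower, with a median log2 fold change of 0.20, and 7 had every LC3b-/- library above every WT library. Of all genes tested, 51.2% were higher, and 2033 of 16990 had every LC3b-/- library above every WT library. In this list edgeR called 0 and DESeq2 1, where DESeq2 called 11.5% of all genes it adjusted. At an unadjusted p below 0.05, 3 of the 22 were higher and 1 was lower. Over all genes tested, 13.5% were higher and 10.6% lower at this p. At this p the list was thus near the share of all genes for higher genes and below it for lower ones. Usp7, which removes ubiquitin from Mdm2 and p53, had a log2 fold change of 0.36 (edgeR adjusted p = 0.134), and the deacetylase gene Sirt1 of 0.51 (0.166). Rchy1, encoding the ubiquitin ligase Pirh2, had one of -0.46 (0.195). Trp73, a p53 relative, was at or below 0.293 CPM in WT and at 3.70, 0.853 and 0.591 CPM in LC3b-/- (edgeR log2 fold change 3.11, adjusted p = 0.132). Only the LC3b-/- libraries exceeded the 0.374 CPM of the filter on low counts, so Trp73 could be tested only through the group in which it was higher. Trp63, which is in this list, is also one of the epithelial markers.

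The kinases and inhibitors around the retinoblastoma protein were also more often higher than lower. Among 18 such G1 genes, 13 were higher and 5 lower at a median log2 fold change of 0.30, where 51.2% of all genes tested were higher. By edgeR 0 were called and by DESeq2 3, where DESeq2 called 11.5% of all genes it adjusted. At an unadjusted p below 0.05, 13.5% of all genes tested were higher and 10.6% lower. In this list 3 were higher at that p, close to the share of all genes, and 0 lower. The same 3 had every LC3b-/- library above every WT library. They were Ccne1, encoding cyclin E1 (log2 fold change 2.32, edgeR adjusted p = 0.0967), Cdk6, the kinase that p15Ink4b blocks (1.15, 0.0967), and Rbl1, encoding the pocket protein p107 (1.41, 0.107). E2f3 had a value of -0.52 (0.210). Cdk6 was at 8.05, 8.04, 7.19 and 10.6 CPM in WT and at 28.1, 14.5 and 13.8 CPM in LC3b-/-, again with F1 on top.

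Genes of dividing cells, which senescent cells no longer express, were not lower as a group. Of 24 tested, 22 were higher and 2 lower, with a median log2 fold change of 1.20, and 13 had every LC3b-/- library above every WT library. At an unadjusted p below 0.05, 15 were higher and 1 was lower; edgeR called 0 and DESeq2 9. The most abundant of them, Pcna, a clamp for DNA polymerase named here after its values were seen, was the gene lower at that p, with every LC3b-/- library below every WT library (means of 73.7 CPM for WT against 56.0 CPM for LC3b-/-, a difference of -0.40 on the log2 scale at an edgeR adjusted p of 0.105). Its pseudogene Pcna-ps2 was at 0.00936 CPM in WT and 13.5 CPM in LC3b-/-, and how reads were split between them is uncertain. The genes with the smallest p were of low level. Birc5, encoding survivin, was at 0.527, 0.414, 0.599 and 0.500 CPM in the WT mice F1, F2, F3 and M1, and at 3.22, 2.46 and 1.54 CPM in the LC3b-/- mice F1, F3 and M (log2 fold change 2.22, edgeR adjusted p = 0.0709). The mitotic kinase genes Aurkb (3.20, 0.0834) and Plk1 (2.04, 0.0842) and the spindle motor gene Kif11 (2.23, 0.0945) had the same order of LC3b-/- libraries, F1 then F3 then M, as Cdkn1a, Cdkn2b, Ccng1, Lmnb1 and the epithelial markers. For Aurkb only the LC3b-/- libraries exceeded the 0.374 CPM of the filter on low counts, so it could be tested only through the group in which it was higher.

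Of 39 genes of the senescence-associated secretory phenotype, the set of cytokines, proteases and growth factors that senescent cells release, 38 were tested. Of these, 35 were higher and 3 lower in LC3b-/-, with a median log2 fold change of 0.73. At an unadjusted p below 0.05, 14 were higher and 0 lower, and 12 lay above WT in every library; edgeR called 0 and DESeq2 10. Mmp3, a matrix metalloprotease, was at 14.5, 15.5, 8.46 and 6.07 CPM in WT and at 68.3, 59.5 and 40.0 CPM in LC3b-/- (edgeR log2 fold change 2.33, SE 0.36, adjusted p = 0.0580). Plaur, the urokinase receptor gene, was at 6.07 to 15.7 CPM in WT and 30.0 to 32.7 CPM in LC3b-/- (1.68, 0.0842), and it was thus level among the LC3b-/- mice as Igfbp3 was. The growth factor gene Areg (3.39, 0.0842) and the macrophage protease gene Mmp12 (2.04, 0.0906) came next. Markers of macrophages and microglia summed to 400 to 596 CPM in WT and 303 to 559 CPM in LC3b-/-. Of these 13 markers 5 were higher and 8 lower. Much of the sum was Csf1r, at 208 to 317 CPM in WT and 93.7 to 260 CPM in LC3b-/-. Cd68, named here after its values were seen, was the 1 marker with every LC3b-/- library above every WT library. It was at 10.7 to 29.3 CPM in WT and at 29.4, 40.6 and 52.8 CPM in LC3b-/- F1, F3 and M.

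Among 17 tested genes of the lamina and of senescence-linked chromatin, 11 were higher and 6 lower, with a median log2 fold change of 0.18. At an unadjusted p below 0.05, 6 were higher and 0 lower, and edgeR called 0 and DESeq2 2. Over all genes tested, 51.2% were higher, and 13.5% were higher and 10.6% lower at this p. DESeq2 called 11.5% of all genes it adjusted, so its count in this list was near that share. Lmna, encoding lamins A and C, was at 66.3 to 169.4 CPM in WT and at 178.6 to 262.1 CPM in LC3b-/- (edgeR log2 fold change 1.11, adjusted p = 0.116), so that it was higher along with Lmnb1. Hmga1, a chromatin protein gene of senescence-associated foci, had a value of 0.96 (0.101), H2az1 of 0.53 (0.125) and Lbr, the lamin B receptor gene, of 0.60 (0.151).

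In the insulin-like growth factor axis, to which Igfbp3 belongs, 9 of 14 tested genes were higher and 5 lower, at a median log2 fold change of 0.38. Of all genes tested, 51.2% were higher. At an unadjusted p below 0.05, 4 of the 14 were higher and 1 lower, where 13.5% of all genes tested were higher and 10.6% lower. DESeq2 called 2 of the 14, where it called 11.5% of all genes it adjusted. Igfbp2, a second binding protein, rose and was the only one of the 14 called by edgeR. It was at 77.2, 62.3, 83.4 and 118.4 CPM in the WT mice F1, F2, F3 and M1, and at 816.3, 575.1 and 512.9 CPM in the LC3b-/- mice F1, F3 and M. No WT library came near the LC3b-/- range (log2 fold change 2.90, SE 0.27, edgeR adjusted p = 0.00909). The call was lost without WT F3 (edgeR adjusted p = 0.0591) and without LC3b-/- F3 (0.0642). Igf2r (0.50, 0.101), Irs1 (0.87, 0.148) and Igf1 (0.45, 0.168) followed.

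Gdf15 is also induced by the integrated stress response, whose genes lay on both sides of WT. Of 13 tested, 9 were higher and 4 lower at a median log2 fold change of 0.29. At an unadjusted p below 0.05, 4 were higher and 2 lower, and edgeR called 0 and DESeq2 4. Over all genes tested, 51.2% were higher, and 13.5% were higher and 10.6% lower at this p. DESeq2 called 11.5% of all genes it adjusted. Chac1, a glutathione-degrading enzyme gene, was at 0.293 to 0.538 CPM in WT and at 1.49, 4.21 and 0.650 CPM in LC3b-/- F1, F3 and M (log2 fold change 2.32, edgeR adjusted p = 0.107), with F3 on top as for Gdf15. Ddit4 had a value of 0.52 (0.120) and Sesn2, also a p53 target, of 0.51 (0.162). Atf5, a transcription factor gene of the pathway, was in every LC3b-/- library below every WT library (log2 fold change -0.58, edgeR adjusted p = 0.104).

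**Figure D5:**
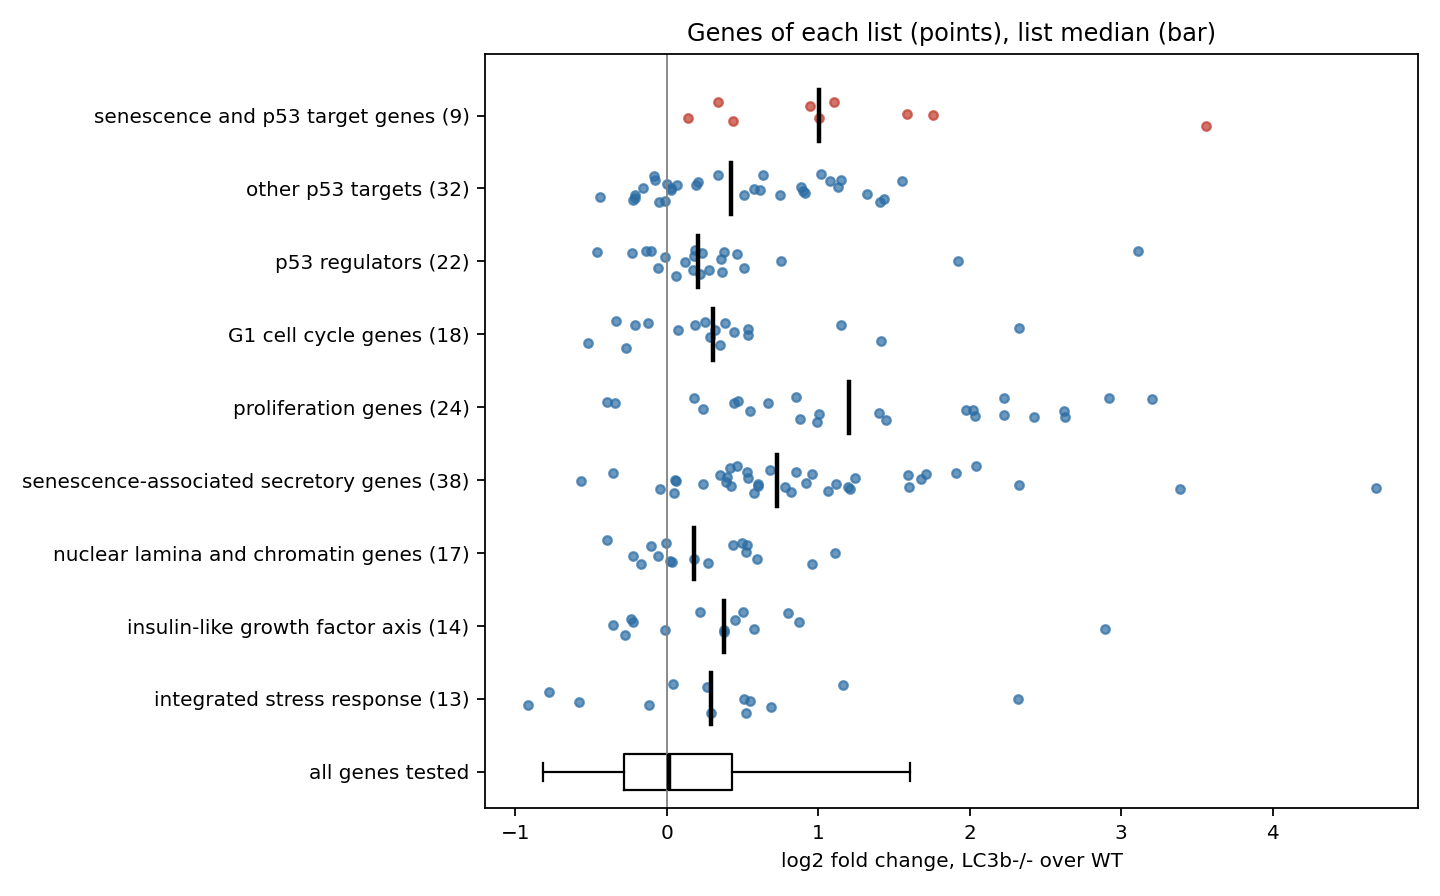
Log2 fold change of LC3b-/- over WT (horizontal axis) for each gene (points) of the 9 senescence and p53 genes (red) and of 8 related lists (blue), with the list median (black bar) and the number tested in brackets; the box gives all genes tested, with whiskers at the 5th and 95th percentiles. The list medians run from 0.18 to 1.20, against 0.01 for all genes tested.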

How the data were processed

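RPE was released with hyaluronidase and then trypsin after removal of cornea, ciliary body and lens, and stranded poly(A) libraries were read as single reads on a NovaSeq. Per the labels and the study's methods, the authors ran salmon 1.9.0 against GENCODE vM26 transcripts (GRCm39) and summed to genes with tximeta 1.16.1; the deposited values are estimated counts, rounded to whole numbers and not scaled. Whether litter or preparation day was shared is not given, so p-values measure the spread between these mice. Symbols and positions come from GENCODE vM39 (51721 of 52740 identifiers matched). In R 4.3.3, edgeR 4.0.16 (filterByExpr, TMM, quasi-likelihood test, no covariate, Benjamini-Hochberg over 16990 genes) gave fold changes; the call is an adjusted p below 0.05 and 1.5-fold. Exact two-sided permutation tests used log2 CPM (prior count 2). Code was tested on simulated data. Alternatives were DESeq2 1.42.0, limma 3.58.1 (voom), other scalings, filters, covariates and libraries left out. In a BLAST 2.17.0 search of the transcripts of other genes, keeping alignments of 100 or more bases at 95% or more identity, apart from Trp53-ps, the longest matches were 165 bases for Cdkn1a, 147 for Mdm2 and 106 for Lmnb1, and Cdkn2a, Cdkn2b, Ccng1, Gdf15 and Igfbp3 had none. The 9 genes were not searched against each other, so sequence shared by Cdkn2a and Cdkn2b was not looked for. The 9 genes and all lists were chosen with earlier results of these data known. Named besides these 9 are, for each list, called genes and at most 4 genes of smallest p, the 3 genes most alike in profile (not reported here for Ccng1), and the most abundant markers. Figures were drawn with matplotlib 3.10.9 in Python 3.11.15.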

Additional observations from a re-analysis of the deposited data

Results flagged for a closer look

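Lmnb1 in WT F2, at 19.6 CPM, stood apart from the other 3 WT libraries (13.3 to 14.2 CPM). Its gap to the nearest of them was 0.852 of the range of the group, above Dixon's 95% critical value for 4 samples. Chance flags about 1 in 20 groups. No other of the 9 genes had such a sample in WT, and the 3 LC3b-/- libraries are too few for this test.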

How the results depend on the processing

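All 9 genes stayed higher in LC3b-/- under every alternative in which they could be tested, except Cdkn2a, whose log2 fold change was -0.24 (edgeR adjusted p = 0.938) without the 2 libraries LC3b-/- F1 and WT F3, an alternative chosen after seeing the data; Cdkn2a could not be tested at 10 counts in every library. With DESeq2's Wald test 5 of the 9 genes were called instead of 0, 7 other p53 targets instead of 1, 1 p53 regulator, 3 G1 genes, 9 proliferation genes, 10 secretory genes, 2 lamina and chromatin genes and 4 stress response genes instead of 0, and 2 growth factor axis genes instead of 1. DESeq2 called 1831 of all genes (1209 higher), voom 56 and edgeR 40. With the replicate block, and without LC3b-/- F1 and WT F3, 0 other p53 targets and 0 growth factor axis genes were called, and of all genes 0 and 1. Mouse numbers F1 and F3 occur in each group, but nothing shows that they pair the mice: deviations from the group means correlated at 0.146 and 0.243, and LC3b-/- F1 was closest to WT M1. Without the fold threshold edgeR's counts of calls in these lists were the same. At 10 counts in every library 1 proliferation gene was called; with voom, with no filter on low counts, with sex as a covariate and in females only, 1 secretory gene; and with the sex covariate 1 stress response gene. Leaving out 1 library at a time gave 0 to 1 called of the 9 genes, of other p53 targets, of lamina genes and of the growth factor axis, 0 to 3 proliferation genes and 0 to 3 secretory genes (3 and 3 without LC3b-/- M; without WT F1, 2 secretory genes and the lamina gene). Over all genes edgeR's calls numbered 215 when WT F1 was left out and 485 when LC3b-/- M was. The cause of these differences was not tested. Precision is limited by 3 against 4 mice and, for Cdkn2a, by its counts.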
